A study of Arabidopsis thaliana with 20 samples.

Results

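Histone H3 occupancy was compared between the DNA methyltransferase mutants drm2 and met1-3 of Arabidopsis thaliana at the bases where both had been measured. The H3 tables cover windows of 1100 bp, each holding a differentially methylated region (DMR) of 100 bp with flanks of 500 bp. A base was taken when a window around a drm2 DMR and a window around a met1 DMR both covered it, in any cytosine context. This gave 7.55 Mb, which is 68.0% of the bases in drm2 windows and 43.3% of those in met1 windows. In bins of 50 bp these bases made 151111 of the 437266 bins that any drm2, met1 or cmt3 window reached.

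The 3 genotypes were wild-type Col-0, drm2 and met1-3, all of the Columbia background, with mature leaves taken at 3.5 weeks. Each had 2 MNase-H3-ChIP-seq libraries, and no further transgene, treatment or allele is named in the labels; for drm2 no allele number is given. The H3 tables belong to a series of 20 libraries that also held nrpe1, swi3b and cmt3 plants. Whether methylation in a DMR was lost or gained is not given in the sources used here.

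Plants methylate cytosine in the contexts CG, CHG and CHH, where H is any base but G. DRM2 is the methyltransferase of RNA-directed DNA methylation, in which noncoding RNA made by RNA polymerase V (Pol V) and small RNAs guide it to transposons and repeats, often short ones close to genes, and it sets much of the CHH methylation there. MET1 copies CG methylation after replication, in genes and in transposons alike, and its loss also disturbs the other contexts at many places. Micrococcal nuclease (MNase) digests the DNA between nucleosomes, so fragments that come down with an antibody to histone H3 mark where nucleosomes sat.

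Coverage was the number of fragments over a base, averaged over a bin. Before scaling, the mean per bin was 9.19 in Col-0, 10.98 in drm2 and 3.51 in met1-3, and 46.2%, 50.7% and 54.3% of the bins held no fragment at all. Each mutant was divided by its ratio to Col-0 over 104872 shared bins outside every DMR, which was 1.37 for drm2 and 0.42 for met1-3. One drm2 fragment thus counted as 0.73 scaled units and one met1-3 fragment as 2.38, so single bins were much coarser in met1-3. Each table combined both libraries of a genotype, so no test between genotypes could be made. Ranges over the 5 chromosomes are given instead, and they do not measure the spread between plants.

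H3 coverage was lower in drm2 than in met1-3 at CHH DMRs of drm2. Summed over bins of all coverage levels, it was slightly higher in drm2 at CG DMRs of either mutant that lay outside drm2 CHH DMRs. The clearest difference lay in the 2512 bins in a drm2 CHH DMR and in no met1 DMR. Mean coverage there was 2.51 in Col-0, 1.21 in drm2 and 2.60 in met1-3, which put met1-3 beside the wild type and drm2 below both. The log2 ratio of drm2 to met1-3 was -1.10 (range over chromosomes -1.24 to -0.78), a ratio of 0.467. Against Col-0 the log2 ratio was -1.05 (-1.30 to -0.74) in drm2 and 0.05 (-0.05 to 0.15) in met1-3. The ratios to Col-0 share the same Col-0 values and are given side by side only.

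All 5 chromosomes gave a log2 ratio of drm2 to met1-3 below 0. It was -1.24 on chromosome 1, -0.78 on chromosome 2, -1.22 on chromosome 3, -1.24 on chromosome 4 and -1.10 on chromosome 5. These bins fell into 1108 places more than 1000 bp apart, and 828 protein-coding genes had one in their body or within 1 kb of an end. Of the bins, 86.7% lay between genes and 15.7% in pericentromeres (the gene-poor stretch around each centromere), against 57.4% and 43.6% of all shared bins. The ratio was -1.12 in the chromosome arms (2117 bins, -1.37 to -0.68 over chromosomes). In pericentromeres it was -0.99 over 395 bins, with the chromosomes from -2.54 to -0.29. It was -1.20 between genes and -1.06 inside protein-coding genes, where 190 bins lay and the chromosomes ranged from -2.87 to 0.16. In 97 bins inside pseudogenes it was -0.51 (-1.94 to 0.39); transposable element genes have no class of their own in the gene table used.

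Where the same bin lay in a CHH DMR of both mutants, both had less H3 than Col-0, and drm2 had the least. Over 4409 such bins mean coverage was 3.21 in Col-0, 1.38 in drm2 and 1.91 in met1-3. Against Col-0 this was a log2 ratio of -1.22 (-1.35 to -0.93) in drm2 and -0.75 (-0.87 to -0.58) in met1-3. The ratio of drm2 to met1-3 was -0.47, with the chromosomes between -0.62 and -0.35. A further 756 bins lay in a drm2 CHH DMR and a met1 CG DMR, but in no met1 CHH DMR. There the coverage was 12.7 in Col-0, 7.40 in drm2 and 10.8 in met1-3, and the ratio of drm2 to met1-3 was -0.55 (-0.66 to -0.37). Among drm2 CHH bins, met1-3 lay closest to Col-0 where it had no DMR, at 0.05. It was at -0.23 where it had a CG but no CHH DMR, and lowest where it had a CHH DMR (-0.75). These groups also differed in mean Col-0 coverage. In drm2 CG bins outside drm2 CHH DMRs only part of this order was seen. Met1-3 was again lowest with a met1 CHH DMR, at -0.59 against Col-0. It was at -0.38 with a met1 CG DMR, and at -0.45 in the drm2 CG bins with no other drm2 DMR and no met1 DMR. In bins of met1 CHH DMRs alone it was at -0.28.

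At CG DMRs outside drm2 CHH DMRs the order of the mutants was the other way round, and the gap over all bins was small. The 1287 bins in a drm2 CG DMR, in no other drm2 DMR and in no met1 DMR had a mean coverage of 20.7 in Col-0, 17.2 in drm2 and 15.2 in met1-3. Drm2 was above met1-3 by 0.18 on the log2 scale, with every chromosome above 0 (0.05 to 0.56). Without a trim of the highest bins it was -0.44, so this value rests on leaving those bins out. In 14426 bins in CG DMRs of both mutants but in no drm2 CHH DMR the ratio was 0.12 (-0.06 to 0.32). In 11852 bins in a met1 CG DMR and in no drm2 DMR, coverage was 20.4 in Col-0, 17.5 in drm2 and 15.9 in met1-3, and the ratio was 0.14 (-0.07 to 0.39). Drm2 was therefore below Col-0 by 0.23 on the log2 scale in bins where it had no DMR, and met1-3 was below Col-0 by 0.45 in the drm2 CG bins where it had none. Ratios to Col-0 varied with Col-0 coverage outside all DMRs too. Those bins gave 0.44 in drm2 and 0.21 in met1-3 at a Col-0 coverage of 5 to 20. They gave -0.22 and -0.17 at 20 to 50, and -0.61 and -0.41 at 50 or more. How much of the shortfall goes with coverage was not tested.

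At CHH DMRs of met1 outside drm2 DMRs, met1-3 was the lower mutant, but by a smaller gap than that of drm2 at its own. In 7739 bins in a met1 CHH DMR and in no other DMR of either mutant, mean coverage was 4.82 in Col-0, 4.69 in drm2 and 3.95 in met1-3. Here drm2 was above met1-3 by 0.25 (0.11 to 0.54) on the log2 scale, and the ratio to Col-0 was -0.04 in drm2 and -0.28 in met1-3. The difference at met1's own CHH DMRs was thus in the opposite direction and smaller than the -1.10 at drm2's own. As a comparison class, 886 bins in a cmt3 DMR and in no drm2 or met1 DMR had a ratio of drm2 to met1-3 of -0.01 (-0.08 to 0.01), and both mutants were above Col-0 there, by 0.24 and 0.25.

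Pooled over contexts, the classes that hold drm2 DMRs hid these opposite directions. All 4098 bins in drm2 DMRs outside met1 DMRs gave a log2 ratio of -0.05 (-0.62 to 0.10), a mix of CHH bins with little coverage and CG bins with much. The 20311 bins in DMRs of both gave 0.10 (-0.08 to 0.31). All 20749 bins in met1 DMRs outside drm2 DMRs gave 0.16 (-0.03 to 0.41). Their CG, CHG and CHH bins all lay above 0, at 0.14, 0.16 and 0.25. The pooled values turned sign or moved with the trim, the scaling bins and a coverage minimum, which the part on processing gives.

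**Figure D1:**
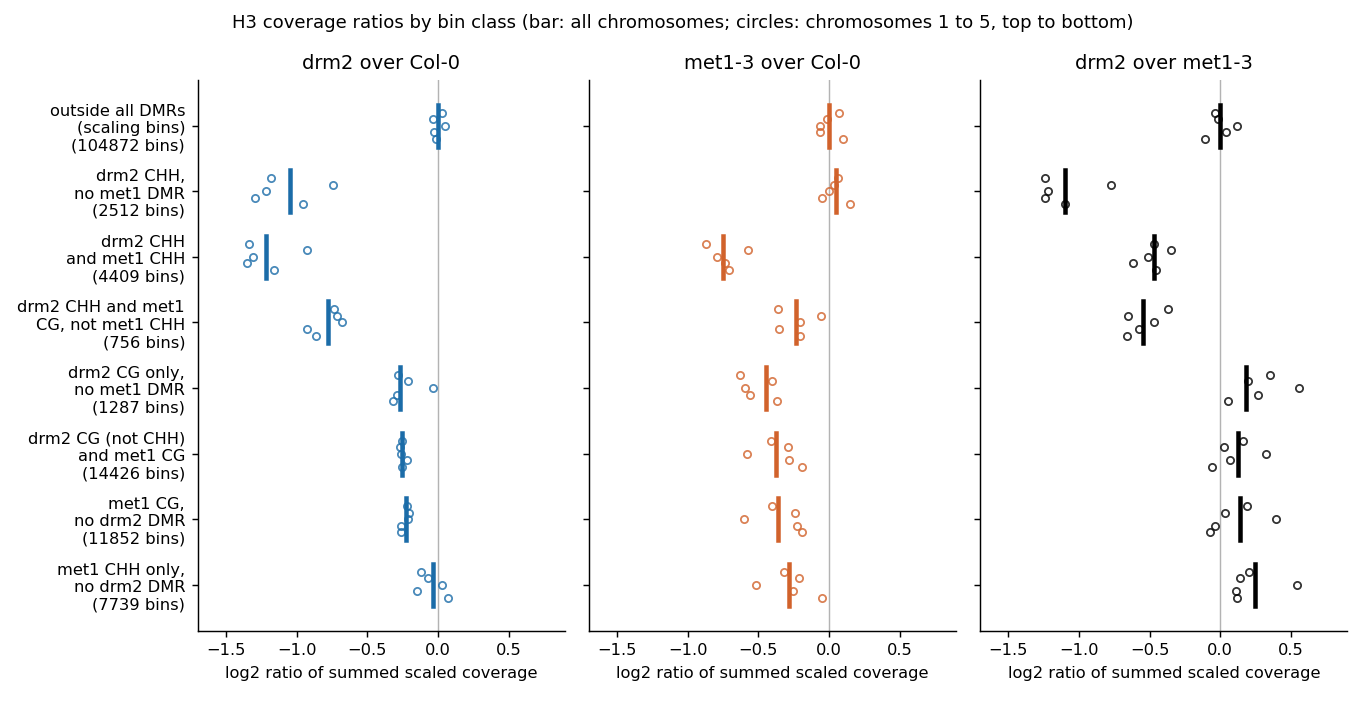
Log2 ratios of summed scaled H3 coverage (x axis) for 8 classes of bins (y axis), with drm2 over Col-0 on the left, met1-3 over Col-0 in the middle and drm2 over met1-3 on the right; the thick bar is the value over all chromosomes and the open circles are chromosomes 1 to 5. The 3 classes in drm2 CHH DMRs lie to the left of 0 in drm2 over met1-3, at -1.10, -0.47 and -0.55, and the 4 classes below them lie at 0.12 to 0.25.

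The difference at drm2 CHH DMRs was centred on the DMR. It was followed over the shared bases around 2727 drm2 CHH DMRs that overlap no met1 DMR, of which 1172 were shared over the whole DMR. A position drew on 939 to 1236 DMRs on average, so the centre and the flanks rest on partly different DMRs. Each shared base lies in a met1 window, so flank positions can fall in met1 DMRs. The share that did was not counted. Mean coverage in drm2 was 2.26 at 525 bp before the centre and dropped to 1.09 at 25 bp past it. In met1-3 it was 2.29 and 2.63 at the same points, and in Col-0 2.32 and 2.47. The log2 ratio of drm2 to met1-3 was -1.27 at its lowest, 25 bp past the centre, -0.55 at 175 bp before it and -0.02 at 525 bp before it. In 254 of these DMRs every base up to 500 bp from the centre was shared. There the ratio was -1.09 at 25 bp before the centre, -0.35 at 475 bp before it and -0.01 at 475 bp past it, so the dip was also present in a fixed set of DMRs.

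The 3753 drm2 CHH DMRs that overlap a met1 DMR had another shape. Col-0 carried a peak there, with a mean coverage of 4.89 at 25 bp before the centre against 1.56 at 525 bp before it. Both mutants kept a lower peak, of 3.46 in met1-3 and 2.35 in drm2. The ratio of drm2 to met1-3 was -0.55 at the centre and -0.34 at the far flank. The genotypes stood differently at the 2 points. At 525 bp before the centre drm2 (1.46) was near Col-0 (1.56) and met1-3 (1.85) was above it. At the centre both mutants were below Col-0. Around CG DMRs that overlap no DMR of the other mutant, all 3 genotypes peaked at the DMR and the mutants ran parallel over the shared bases. The ratio stayed between 0.09 and 0.22 around drm2 CG DMRs, of which 765 of 5347 were shared over the whole DMR. It stayed between 0.11 and 0.17 around met1 CG DMRs, of which 5232 of 14689 were shared over the whole DMR. Where every base up to 500 bp from the centre was shared, it ranged from -0.04 to 0.32 over 191 drm2 CG DMRs and from 0.18 to 0.26 over 1886 met1 CG DMRs.

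**Figure D2:**
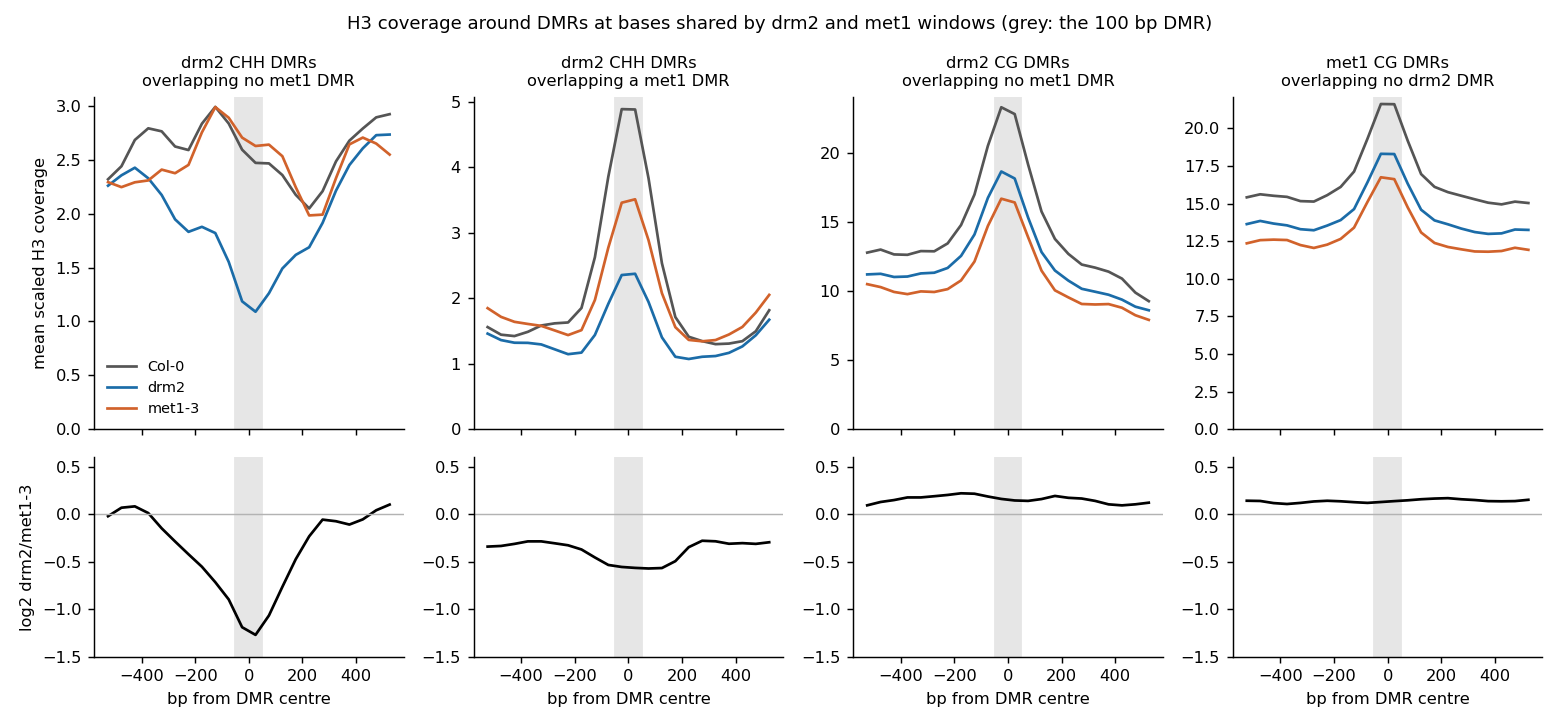
Mean scaled H3 coverage (upper row) and the log2 ratio of drm2 to met1-3 (lower row) against the distance in bp from the DMR centre, at shared bases, for 4 sets of DMRs; grey lines are Col-0, blue drm2, orange met1-3, the shaded band is the 100 bp DMR, and the upper panels have different scales that start at 0. At drm2 CHH DMRs without a met1 DMR the ratio drops to -1.27 at the centre and returns to -0.02 at the left edge, while around CG DMRs it stays flat above 0.

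The gap between the mutants depended on how much H3 a bin carried in the wild type. In drm2 CHH bins outside met1 DMRs, the log2 ratio of drm2 to met1-3 was -2.06 over 527 bins with a Col-0 coverage of 1 to 5. It was -0.98 over 283 bins with 5 to 20 and -0.78 over 63 bins with 20 to 50. Coverage in the first of these groups was 2.15 in Col-0, 0.48 in drm2 and 2.01 in met1-3. Even in the 1417 bins with no Col-0 fragment, met1-3 averaged 0.28 and drm2 0.04, a log2 ratio of -2.65. The same comparison outside all DMRs gave -0.96 with no Col-0 fragment, -0.01 at 1 to 5, 0.23 (0.09 to 0.34 over chromosomes) at 5 to 20, -0.06 at 20 to 50 and -0.20 at 50 or more, so bins at 0 in Col-0 lean to met1-3 in general.

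In CG DMRs the trend ran the opposite way. In the drm2 CG bins without other drm2 or met1 DMRs, 203 bins with a Col-0 coverage of 1 to 5 held 2.49 in Col-0, 6.19 in drm2 and 1.60 in met1-3, so drm2 stood above the wild type and met1-3 below it. Drm2 over met1-3 was at 1.95 there (0.99 to 2.13 over chromosomes), 0.98 at 5 to 20, 0.11 at 20 to 50 and -0.22 at 50 or more. CG bins of both mutants gave 1.77 over 2360 bins at 1 to 5, and met1 CG bins outside drm2 DMRs gave 1.18 over 2301 bins. At 50 or more, drm2 was below Col-0 in these classes and outside DMRs alike, by 0.61 to 0.64. At 1 to 5, drm2 was above Col-0 by 1.31 in the drm2 CG bins. Outside all DMRs both mutants were above Col-0 at 1 to 5 as well, by 0.36 each. Sorted this way, drm2 held more H3 than both other genotypes in CG bins that were sparse in the wild type and less than both in the fullest bins, where bins outside all DMRs had a like ratio of drm2 to met1-3 (-0.20). The Col-0 values both sort the bins and stand below the ratios to Col-0, while the ratio of drm2 to met1-3 does not contain them apart from the scale.

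**Figure D3:**
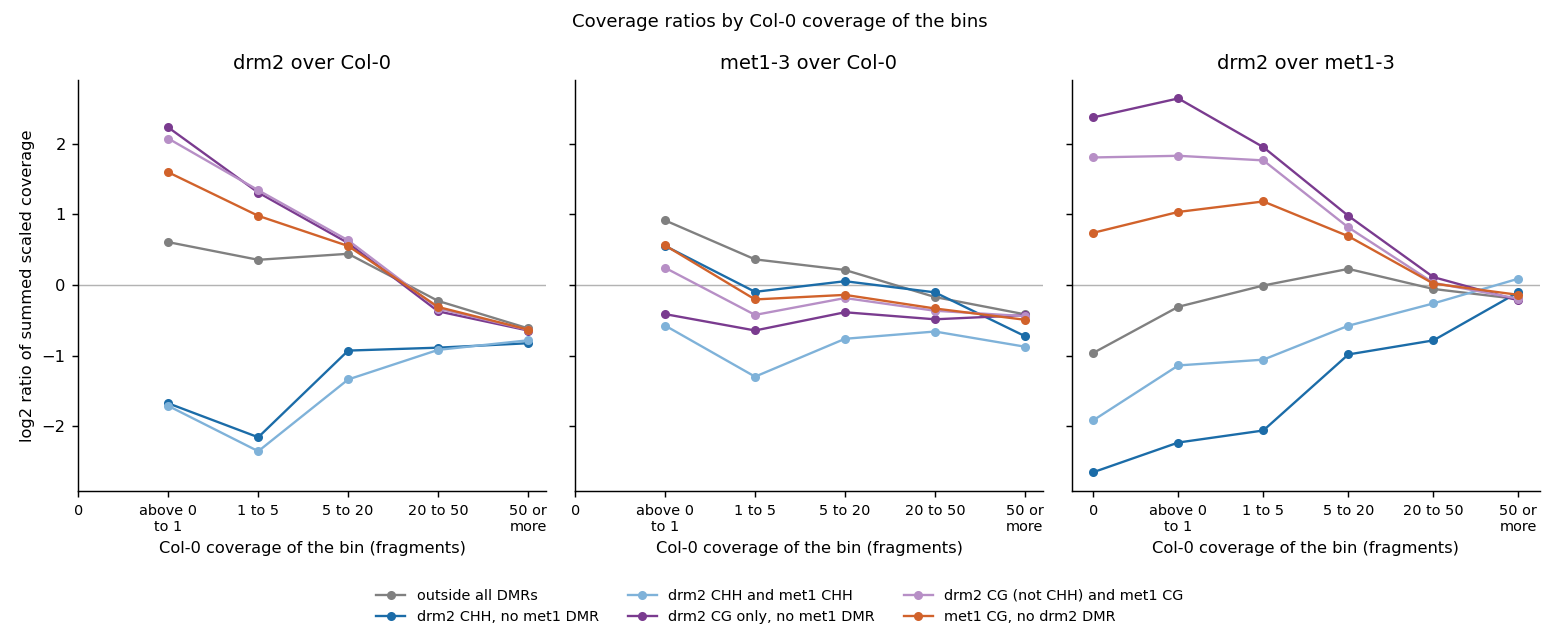
Log2 ratio of summed scaled coverage (y axis) by the bin's Col-0 coverage in fragments (x axis) for 6 classes of bins; the left panel is drm2 over Col-0, the middle met1-3 over Col-0 and the right drm2 over met1-3, and no ratio to Col-0 exists for bins at 0. In the right panel the CG classes start far above 0 and the drm2 CHH classes far below it, from 1.95 to -2.06 at a Col-0 coverage of 1 to 5, and all classes meet near 0 at 50 or more.

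Bins that differed by at least 2-fold were counted among the 43517 bins where Col-0 reached a coverage of 5, after 1 was added to both scaled values. Over all of them, drm2 was at least 2-fold higher in 8605 bins (19.8%) and at least 2-fold lower in 3320 (7.63%). In drm2 CHH bins outside met1 DMRs the order was reversed: 172 of 351 (49.0%) were lower and 24 (6.84%) higher. In CHH bins of both mutants 241 of 750 (32.1%) were lower and 83 (11.1%) higher. The drm2 CG bins without other drm2 or met1 DMRs had 17 of 759 (2.24%) lower and 202 (26.6%) higher, and met1 CG bins outside drm2 DMRs 243 of 7427 (3.27%) lower and 1614 (21.7%) higher. The share of higher bins among met1 CG bins was near the 19.8% of all bins and is no result about them. Among drm2 CG bins the share was above it, at 26.6%, and this difference was not tested. Since a met1-3 fragment weighs more than a drm2 fragment, these counts describe the tables at their depth.

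**Figure D4:**
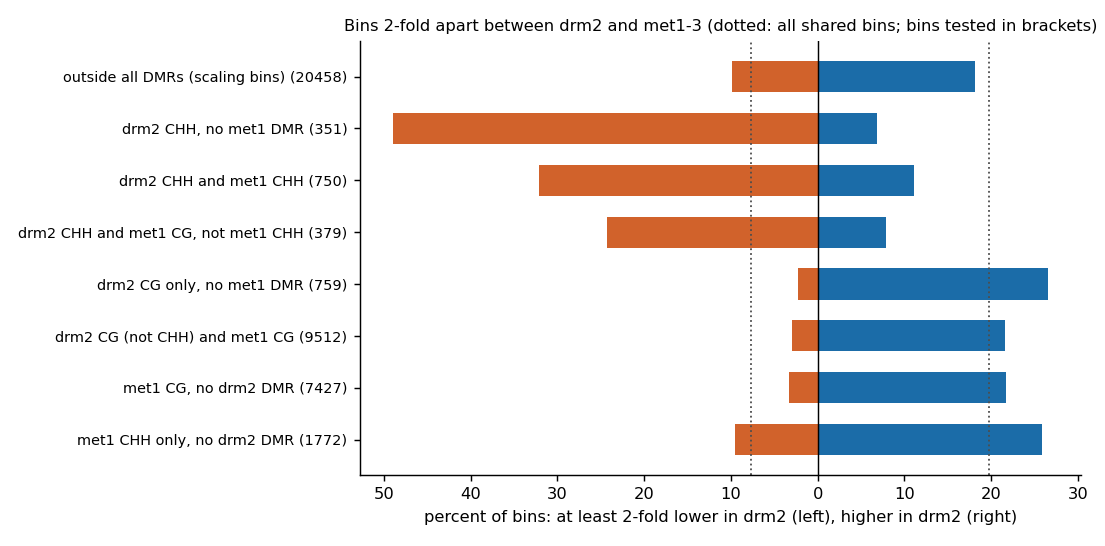
Percent of bins where Col-0 coverage reached 5 (x axis) in which drm2 was at least 2-fold lower than met1-3 (orange, left) or higher (blue, right), for 8 classes of bins (y axis, bins tested in brackets); dotted lines are the shares over all shared bins, 7.63% and 19.8%. The drm2 CHH class without met1 DMR reaches 49.0% on the left, and the CG classes stay within 2.24% to 3.27% there.

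A set of 685 nucleosome positions that the authors named Pol V stabilized bears on the same places. The positions were read from the row names of the authors' deposited Col-0 methylation table for that set, which has 690 rows, 5 of them repeats of a position. The interval list that carries the Pol V name was not used, because it holds the same 4089 intervals as the list that carries the SWI3B name and none of the 685 positions. The set was deposited with the nrpe1 and swi3b part of the series, whose H3 libraries are separate from those compared here. Of these, 82 lay whole in shared bases, each over 200 bp. Their mean H3 coverage was 1.71 in Col-0, 0.25 in drm2 and 1.84 in met1-3. The log2 ratio of drm2 to met1-3 was -2.87 (-3.81 to -2.00 over chromosomes), against 0.06 over all shared bins. Against Col-0 it was -2.76 in drm2 and 0.11 in met1-3. Drm2 was below met1-3 at 27 of the 82 nucleosomes and above it at 5, and the other 50 had equal values. No fragment was seen at 69 in drm2, 55 in met1-3 and 56 in Col-0, so in each genotype most listed nucleosomes held no fragment at this depth.

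The value did not rest on the few fullest nucleosomes: without the 3 highest in Col-0 it was -2.76. Among the 10 that overlap a drm2 DMR and no met1 DMR, coverage was 3.54 in Col-0, 0.42 in drm2 and 4.78 in met1-3. These means rest mainly on very few nucleosomes, as the highest single values were 28.9 in Col-0 and 40.7 in met1-3. No fragment was seen at 6 of the 10 in Col-0, 8 in drm2 and 4 in met1-3. Among the 32 that overlap DMRs of both it was 2.70, 0.42 and 2.19, with no met1-3 fragment at 18 of them, and met1-3 was below Col-0 by 0.30 on the log2 scale (-1.40 to -0.08). The gap between the mutants was not limited to drm2 DMRs. At 12 that overlap a met1 DMR and no drm2 DMR the log2 ratio of drm2 to met1-3 was -4.40, with a mean coverage of 0.83, 0.08 and 1.63. At the 28 that overlap neither it was -2.57, with 0.32, 0.08 and 0.49. These are ratios of a few fragments, since 9 of the 12 and 24 of the 28 held none in met1-3. The authors' deposited Col-0 bisulfite values averaged 29.8% methylation over the 50 of the 82 that had any value.

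The companion list of SWI3B stabilized nucleosomes, named for a subunit of SWI/SNF chromatin remodellers, gave a smaller gap overall. Its 4089 intervals equal the row names of the authors' deposited SWI3B methylation table. Of its 4089 entries 50 lay whole in shared bases, with 2.77 in Col-0, 3.00 in drm2 and 3.76 in met1-3. Drm2 over met1-3 was at -0.32, and the chromosomes ranged from -1.67 to 0.08. At the 4 that overlap a drm2 DMR and no met1 DMR it was -2.69, with a mean coverage of 1.28, 0.28 and 1.82. The difference between the lists was not tested.

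Individual bins were named by a rule that took the lowest and highest ratios, 1 added to each value, among bins where Col-0 coverage reached 20. Fragments are those over the bin's central base, and at equal scaled coverage drm2 would hold 76.5% of the drm2 and met1-3 fragments. Among drm2 CHH bins outside met1 DMRs, the lowest ratio was -3.35 on chromosome 3 from 17658801 to 17658850, next to CHL (AT3G47860), which encodes a chloroplast lipocalin. Scaled coverage there was 20.6 in Col-0, 0.73 in drm2 and 16.7 in met1-3. Drm2 had 1 of 8 fragments, 12.5% (95% exact interval 0.32% to 52.7%, counting error only). The other lay on chromosome 5 from 20426701 to 20426750, nearest to AT5G50175, with 30.6 in Col-0, 3.12 in drm2 and 38.7 in met1-3, and 3 of 22 fragments in drm2.

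Low values in drm2 were also found at met1 CHH DMRs and outside DMRs. In IAMT1 (AT5G55250), whose product methylates the auxin indole-3-acetic acid, a bin in a met1 CHH DMR on chromosome 5 from 22408851 to 22408900 held 22.0 in Col-0, no drm2 fragment and 23.8 in met1-3. In AT2G03250 a bin of a met1 CHH DMR on chromosome 2 from 984051 to 984100 held 24.1 in Col-0, 0.59 in drm2 and 33.1 in met1-3. The bin just before it lies in no drm2 or met1 DMR and held 23.6, 0.73 and 31.8. In AT1G31163 a bin in CHH DMRs of both, on chromosome 1 from 11129101 to 11129150, held 20.3 in Col-0, no fragment in drm2 and 23.2 in met1-3. A bin in CG DMRs of both, near AT1G45163 on chromosome 1 from 17091601 to 17091650, held 28.5 in Col-0, 0.73 in drm2 and 32.6 in met1-3. Near AT2G43670, a bin in no drm2 or met1 DMR on chromosome 2 from 18106701 to 18106750 held 20.4, none and 21.4.

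The highest ratios came from bins with few or no met1-3 fragments, and all of those named but one lay in one stretch of chromosome 3. Among drm2 CG bins outside met1 DMRs, the highest was on chromosome 3 from 18255701 to 18255750, nearest to DMS3 (AT3G49250), a component of RNA-directed DNA methylation. It held 23.0 in Col-0, 22.5 in drm2 and no fragment in met1-3. In bins of DMRs of both, AT3G42990 had 43.3 in Col-0, 45.3 in drm2 and none in met1-3, at 15031001 to 15031050 of the same chromosome. The pseudogene AT3G32091 had 46.8, 38.8 and none at 13088051 to 13088100. Among met1 CG bins outside drm2 DMRs, the pseudogene AT3G42993 had 54.3, 37.6 and none at 15036151 to 15036200, and the bin from 15576401 to 15576450 near AT3G43680 had 43.8, 36.7 and none. Bins in neither kind of DMR held 27.0, 35.7 and none in AT3G43681 from 15581701 to 15581750, and 28.2, 33.4 and none in AT3G42993 from 15033951 to 15034000. Several named bins share a place: 15031001, 15033951 and 15036151 lie within 10 kb of one another, as do 15576401 and 15581701. They are thus not separate cases. The single case elsewhere was near AT5G03944 on chromosome 5 from 1064851 to 1064900, with 20.6 in Col-0, 27.8 in drm2 and 0.24 in met1-3.

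Of the 21342 bins where Col-0 coverage reached 20, met1-3 had no fragment in 79 (0.37%) and drm2 in 5 (0.0234%). Of the 79 bins, 68 lay on chromosome 3 between 11834201 and 18757850, at 14 places more than 10 kb apart. There Col-0 averaged 33.9, and drm2 had a median of 27.8 with no bin under 11.2. From 11 to 19 Mb of chromosome 3, 68 of 5108 such bins (1.33%) were empty in met1-3. On the rest of the chromosome this was 0 of 413 bins, which allows a share of up to 0.726%, and on the other chromosomes 11 of 15821 (0.0695%). The same stretch gave the highest class ratios: CG bins of both mutants had a log2 ratio of drm2 to met1-3 of 0.33 there, 0.22 on the rest of chromosome 3 and 0.05 on the other chromosomes. Bins outside all DMRs were also highest in this stretch, with 0.16 there, -0.22 on the rest of chromosome 3 and -0.03 on the other chromosomes. At the CG bins this came with met1-3 at -0.60, -0.36 and -0.30 against Col-0, while drm2 was at -0.27, -0.13 and -0.25. At drm2 CHH bins outside met1 DMRs the ratio was -1.21, -1.23 and -1.07 in the same order.

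A list of 22 loci known from work on Arabidopsis DNA methylation was looked up whatever its values. Only 5 had shared bins in the gene or within 1 kb of it. SDC, an F-box gene silenced through methylated tandem repeats in its promoter, had 19 bins with no fragment in any genotype. QQS, an orphan gene that affects starch content and whose methylation varies between plants, had 18 bins with 2.19 in Col-0, 1.44 in drm2 and 3.34 in met1-3. HDG9, a homeodomain gene imprinted in endosperm, had 29 bins with 3.96, 2.46 and 3.50. RPP7, a gene for resistance to downy mildew, had 76 bins with 0.47, 0.51 and 0.59. RPP4, another resistance gene, had 2 bins, with fragments in met1-3 alone.

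H3 profiles along the chromosome lined up between the mutants. Across 567 shared stretches of at least 1500 bp in which every genotype averaged 2 or more fragments, the correlation of coverage along a stretch averaged 0.82 between drm2 and met1-3 at no shift and 0.69 at a shift of 50 bp. The shift with the highest correlation lay within 10 bp of 0 in 464 stretches (81.8%). The same value was 88.0% for drm2 with Col-0 and 84.3% for met1-3 with Col-0. Neighbouring bases share fragments, so these are descriptions without a p-value.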

How the data were processed

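For Col-0, drm2 and met1-3, 2 H3 libraries each, sequenced in pairs of 50 bp reads, were combined by the authors into 1 table per genotype and DMR set. The deposited signal is fragment coverage in whole numbers at 1099 positions of each window, with no scaling found in it. Per the submitters' processing notes, Bowtie2, Picard, Bismark and methylKit were used with the TAIR10 build, without versions. Methylation values were deposited by the authors as a fraction. A base that recurred in several windows always had the same value, and Col-0 values of the drm2 and met1 tables differed at 0 shared bases. The first value of a window was taken as its named start, which could be off by 1 bp.

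Bins of 50 bp in the top 0.1% of any genotype (195 bins, with 9.71% to 16.9% of the coverage) were left out. Ratios are log2 ratios of summed scaled coverage. Gene names and classes came from the RefSeq table of TAIR10.1, whose nuclear chromosomes equal those of TAIR10. It gives no strand, so 1 kb on either side replaced the upstream 1 kb that was planned. Mean Col-0 coverage was 1.78 at 100 bp outside gene ends and 7.27 at 400 bp inside, so positions line up. Pericentromeres were runs of 500 kb windows with few genes. Bins were named by taking the 2 lowest and 2 highest ratios of each of 4 classes (drm2 DMR, met1 DMR, both, neither), at most 1 per 10 kb within a class. The classes, lists and rules were chosen with earlier results of these data known. The scripts were tested on simulated data. Tools were Python 3.11.15, matplotlib 3.10.9, scipy 1.17.1, pandas 2.3.3 and numpy 2.4.6.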

Additional observations from a re-analysis of the deposited data

How the results depend on the processing

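No paired analysis was possible because the tables hold no column per replicate, and leaving out a replicate was not possible for the same reason. Over 10 results and 14 alternatives each, 113 of 140 values moved by less than the spread (counts: by less than 1.5 times) and 27 by more. The spread is here the standard deviation over the 5 chromosomes, which is narrower than the range given with the ratios. The cause of these moves was not tested. Of the ratios, 9 turned sign, 5 of them within that spread: 4 at drm2 DMR bins outside met1 DMRs, up to 0.13, and 1 at met1 CG bins. The log2 ratio at drm2 CHH bins outside met1 DMRs stayed below 0 in all 14, from -1.16 to -0.41. It was -0.86 in bins where Col-0 reached 5, -0.70 where it reached 20, and -0.41 as a mean over all bins of the log2 ratio, in which a bin without a fragment in either mutant counts as 0. At CHH bins of both mutants it ranged from -0.53 to -0.19. Scaling on bins at least 200 bp from a DMR raised every ratio by 0.18, which moved bins in DMRs of both to 0.28. With no trim of the highest bins, drm2 DMR bins outside met1 DMRs gave -0.42 and the drm2 CG bins among them -0.44. In bins where Col-0 reached 20, met1 DMR bins outside drm2 DMRs gave -0.037, bins in DMRs of both -0.080, drm2 CG bins -0.053 and met1 CG bins outside drm2 DMRs -0.054. As a mean over all bins, DMRs of both gave 0.35 and met1 CG bins outside drm2 DMRs 0.43. Counts of bins at least 2-fold higher and lower in drm2 were 4340 and 1477 in bins of 100 bp, 2119 and 782 where Col-0 reached 20, and 17829 and 15370 with no minimum. With a pseudocount of 5, 1760 were lower. Without chromosome 3, 5637 were higher. Leaving out 11 to 19 Mb of chromosome 3 was chosen after seeing the data and moved no value past its spread. Depth limits single bins most in met1-3.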
